A study of Mus musculus with 8 samples.

Results

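Cux1, Stard8, Lamp5, Crym, Emx1, Tbr1 and Lhx2 are genes by which the layers of the cerebral cortex and its pyramidal neurons are recognised, and their transcripts were followed here in the medial prefrontal cortex (mPFC) of mice that lack the orphan receptor GPR158 in excitatory neurons. The 7 genes were taken by symbol, after the rows of the deposited table had been matched by position to GENCODE M21, and all 7 were found among its 2372 genes. They were chosen by their fold changes and p-values in this same comparison, so these values describe the genes and carry no test of the choice. RNA came from 8 naive adult male mice on a C57Bl/6J background: 4 CaKO mice, with the genotype CamK2A-Cre;Gpr158flox/flox, and 4 littermate controls, with the genotype Gpr158flox/flox. Both groups carry the floxed Gpr158 alleles, and the CaKO mice alone carry Cre recombinase, under the CamK2A promoter, which is active in excitatory neurons of the forebrain. Whole mPFC was used, so every transcript is an average over all cells of the tissue, and fewer cells of a type cannot be told apart from less RNA per cell. The question was which transcripts differ when glutamatergic neurons lose GPR158.

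The neocortex is built of layers whose excitatory neurons are born in sequence, the deep layers first and the upper layers last. Transcription factors such as Emx1 and Lhx2 set up the cortical primordium, Tbr1 fixes the fate of early-born deep-layer neurons, and Cux1 marks late-born neurons of the upper layers and shapes their dendrites and spines. Several of these genes stay on in the adult, where they serve as markers of layer and cell type. Not all of the 7 are specific to pyramidal neurons: Lamp5 also marks a class of interneurons, and Emx1 and Lhx2 are also made in glial or progenitor cells.

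Values were available for each CaKO library as normalised counts, which are read counts divided by 1 factor per library. For the comparison of genotypes the authors' deposited table gives a log2 fold change (CaKO over control), a p-value and an adjusted p-value, and it lists genes with an unadjusted p below 0.05 only. A gene absent from it is described as having no value here. No control library was analysed here, and a control mean is given only as the level that the CaKO mean and the fold change imply, taking the fold change as a ratio of group means. The CaKO libraries held between 2832931 and 3183638 reads over the genes of the table, a share of each library, whose full depth is unknown. Of these genes 0 overlapped Gpr158, so the loss of the targeted transcript was not checked. In the text, "rose" and "fell" are kept for an adjusted p below 0.05 in the authors' deposited table.

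Start regions are shown first, because several of these genes encode transcription factors. RefSeq (GRCm38.p6) gave a start for 6 of the 7 genes, all but Crym, with 8 start regions in all. Each region was searched over the 250 bases before the start, on both strands, for TAATTA (the core that many homeodomain proteins bind), ATCGAT (bound by Cut-repeat proteins such as CUX1), TCACACC (T-box), GGGCGG (GC box), CCAAT (bound by NF-Y), TATAAA (core promoter box) and CAGGTG (one form of E-box). The stretches printed are those that lie outside annotated exons for Stard8, Lhx2 and Lamp5 and the short stretch of Tbr1 that holds its TAATTA matches. Capitals mark matches to any of these motifs, on either strand. The motifs were chosen after the start regions had been seen.
Stard8: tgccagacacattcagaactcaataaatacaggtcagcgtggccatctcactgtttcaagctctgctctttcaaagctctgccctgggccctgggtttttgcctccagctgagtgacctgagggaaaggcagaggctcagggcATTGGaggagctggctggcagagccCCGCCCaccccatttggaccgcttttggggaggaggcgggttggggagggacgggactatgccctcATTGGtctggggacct
Lhx2: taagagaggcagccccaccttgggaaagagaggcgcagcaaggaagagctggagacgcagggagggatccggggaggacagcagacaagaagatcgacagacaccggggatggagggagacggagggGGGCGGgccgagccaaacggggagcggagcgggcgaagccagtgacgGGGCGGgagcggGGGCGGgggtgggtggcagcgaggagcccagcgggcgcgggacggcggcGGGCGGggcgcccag
Lamp5: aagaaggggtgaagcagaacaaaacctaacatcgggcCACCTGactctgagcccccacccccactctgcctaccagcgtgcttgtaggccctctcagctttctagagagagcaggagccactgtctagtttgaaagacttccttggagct
Tbr1: TAATTAatgtctatcTAATTA
All 4 are read 5′ to 3′ on the plus strand. The Stard8 stretch is chrX:99042331-99042580, the Lhx2 stretch chr2:38339031-38339280, the Lamp5 stretch chr2:136052089-136052238 and the Tbr1 stretch chr2:61804420-61804440. The Stard8 stretch lies inside the annotated gene (chromosome X: 99003248 to 99074728), ahead of a RefSeq start within it.

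TAATTA was found in the Tbr1 region alone, where it began at positions -33 and -18 relative to the start, while 4.84% of all 32851 start regions of this length hold it. GC boxes were found in the regions of 4 genes (Lhx2, Tbr1, Emx1 and Stard8), against 32.7% of all regions. The shares given here count regions, not genes. Lhx2 and Lamp5 each have a further region, which held a match to none of the motifs. The Lhx2 region printed above holds 4 of them and the Emx1 region 4, of which 2 overlap, and both are rich in G and C, at 72.8% and 75.6% of bases against a median of 52.4% over all regions. CCAAT was found near the start of Stard8 (positions -107 and -16) and of Lamp5 (position -16, in the part not printed), and 33.9% of all regions hold it. The E-box form was found in the Tbr1 region (position -46) and in that of Lamp5 (position -213), against 17.2% of all regions. The Cux1 region held a match to none of the motifs. The Tbr1, Emx1 and Cux1 regions, and the Lhx2 region not printed, lie wholly within annotated exons of their own gene. So do the last 100 bases of the Lamp5 region printed in part, where its CCAAT match lies. Matches are descriptions of the letters, not of binding.

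The 7 genes were measured at very different levels in the CaKO cortex. Per kilobase of exon, the mean over the 4 CaKO libraries was highest for Lamp5, at 1142 ± 141 normalised counts per kb (SD, n = 4). Tbr1 at 422 ± 33.9 and Crym at 335 ± 82.0 normalised counts per kb came next, and their ranges over the libraries overlap. Lhx2 reached 202 ± 33.9, overlapping Crym through CaKO replicate 2 of that gene, and Stard8 134 ± 13.9 normalised counts per kb. Emx1 at 54.4 ± 7.60 and Cux1 at 41.4 ± 3.94 normalised counts per kb were lowest, and they too overlap. Cux1 has more reads than Emx1 yet stands below it on this scale, having 20024 bases of exon, against 2184 for Emx1. These lengths merge the exons of all annotated transcripts, 14 for Cux1 and 2 for Emx1. The order of Cux1 and Emx1 rests on that choice of length. Lamp5 lies above 93.8% of the genes in the table that entered the adjustment, and Cux1 above 17.1% of them, by level per kilobase.

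**Figure D1:**
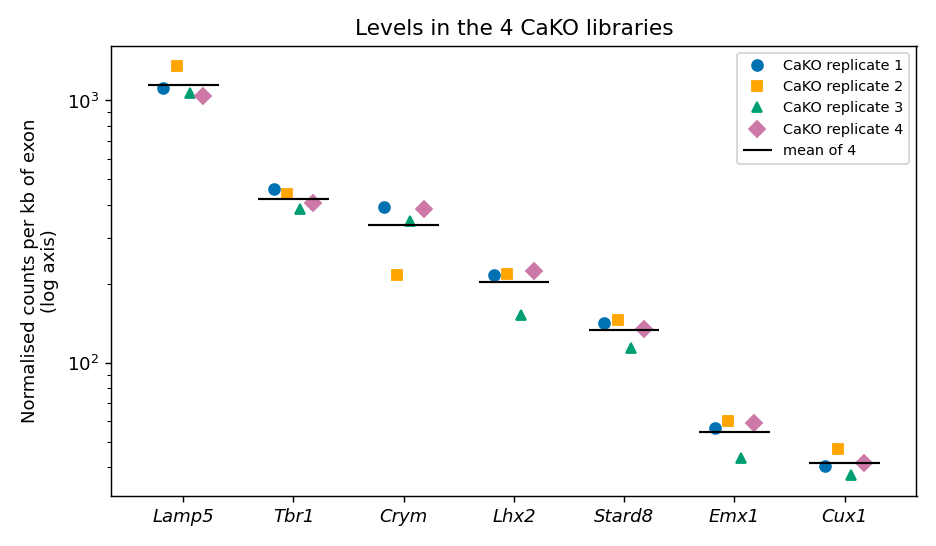
Normalised counts per kilobase of exon (vertical log axis) of the 7 genes in each of the 4 CaKO libraries (symbols), with the mean as a line, ordered by mean. Lamp5 is highest at 1142 and Cux1 lowest at 41.4 normalised counts per kb, and CaKO replicate 2 of Crym and replicate 3 of Lhx2 stand below the other libraries.

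Among the upper-layer genes, Cux1, Stard8 and Lamp5 fell in CaKO mPFC, each to between 69.6% and 77.8% of the control level. Crym, of the deep layers, rose to 166% of it. The 3 cortical transcription factors Emx1, Tbr1 and Lhx2 did not pass, with fold changes below 0 on the log2 scale. Thus 4 of the 7 passed in the authors' deposited table, 1 up and 3 down, where 3.24% of all 12938 genes in the adjustment passed (1.27% up and 1.97% down). All 7 have an unadjusted p below 0.05, as 15.8% of the 12938 genes do (7.14% higher and 8.68% lower in CaKO). Because the genes were chosen with these values known, nothing is read from that contrast. At the threshold itself, the last gene of the table to pass was St3gal3 (adjusted p = 0.0499) and the first not to pass Cnbp (adjusted p = 0.0501), and among the 7 Lamp5 lies nearest to it on the inside and Emx1 on the outside.

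Cux1 encodes a homeodomain protein with Cut repeats (chromosome 5: 136248135 to 136567490, minus strand, GRCm38). It had 810.1, 935, 745 and 828 normalised counts in CaKO replicates 1 to 4, and these imply a control mean of 1122. All 4 CaKO libraries lie below that level, replicate 3 farthest and replicate 2 nearest. The authors' deposited table gives Cux1 a log2 fold change of -0.44, with an implied 95% interval from -0.64 to -0.24 (adjusted p = 0.00312). Antisense gene Gm16599 covers 1.97% of its exon sequence, and whether counting used strand is not given in the sources used here. No other gene shares exon sequence with the remaining 6, and for none of the 7 was a near-identical copy found.

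Stard8 encodes a GTPase-activating protein with a lipid-binding START domain (chromosome X: 99003248 to 99074728, plus strand). Its normalised counts were 779, 797, 626 and 737 in CaKO replicates 1 to 4, for an implied control mean of 1056. Replicate 3 was again the lowest, and all 4 libraries lie below the implied control level. Stard8 had the largest decrease of the 7, at -0.52 on the log2 scale by the authors' deposited table (implied 95% interval from -0.77 to -0.28, adjusted p = 0.00354).

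Lamp5 encodes a membrane protein of the lysosome-associated family found in neurons of the upper layers (chromosome 2: 136052239 to 136069917, plus strand). It had 3262, 3957, 3122 and 3060.5 normalised counts in CaKO replicates 1 to 4, against an implied control mean of 4309. Replicate 2 stands above the other 3 libraries and comes close to the implied control level. The authors' deposited table put Lamp5 at a log2 fold change of -0.36 (implied 95% interval from -0.58 to -0.15, adjusted p = 0.0357). By the approximation used for leaving out a library, this call ended without CaKO replicate 1, 3 or 4, at log2 fold changes of -0.35, -0.33 and -0.32. The wider error with 3 libraries is enough to end it even at an unaltered fold change.

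Crym encodes mu-crystallin, a cytosolic protein that binds thyroid hormone and marks deep-layer neurons (chromosome 7: 120186380 to 120202111, minus strand). It had 1329, 730.4, 1174 and 1306 normalised counts in CaKO replicates 1 to 4, for an implied control mean of 683. Replicates 1, 3 and 4 stand far above that level, while replicate 2 is only 0.10 above it on the log2 scale. The authors' deposited table put Crym at a log2 fold change of 0.73 (implied 95% interval from 0.35 to 1.11, adjusted p = 0.013). Its spread was wide, with a coefficient of variation of 24.5%, larger than in 94.3% of the 1810 genes with a mean of at least 100 normalised counts. Without CaKO replicate 2 the log2 fold change was 0.89, and without replicate 1 or 4 it was 0.65 and 0.66 and the call ended.

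Emx1 encodes a homeodomain protein of the developing and adult cortex (chromosome 6: 85187438 to 85204462, plus strand). It was the least abundant in reads, with 123, 130.3, 94.4 and 128 normalised counts in CaKO replicates 1 to 4 and an implied control mean of 161. Replicates 1, 2 and 4 lie close together and replicate 3 lies below them, all under the implied control level. The authors' deposited table put Emx1 at a log2 fold change of -0.44, as large as that of Cux1, but its implied 95% interval from -0.76 to -0.12 is wider and it did not pass (adjusted p = 0.116).

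Tbr1 encodes a T-box factor of deep-layer, corticothalamic neurons (chromosome 2: 61802930 to 61814114, plus strand). It had 2517, 2419.7, 2108 and 2219.6 normalised counts in CaKO replicates 1 to 4, against an implied control mean of 2709. The libraries differ little, with a coefficient of variation of 8.03%, the smallest of the 7. The authors' deposited table put Tbr1 at a log2 fold change of -0.23, which did not pass (implied 95% interval from -0.41 to -0.04, adjusted p = 0.179).

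Lhx2 encodes a LIM-homeodomain factor that confers cortical identity in the embryo (chromosome 2: 38339281 to 38369733, plus strand). It had 951, 953, 666 and 984 normalised counts in CaKO replicates 1 to 4, for an implied control mean of 1068. Replicates 1, 2 and 4 are nearly equal and replicate 3 stands apart below them. The authors' deposited table put Lhx2 at a log2 fold change of -0.27 (implied 95% interval from -0.53 to -0.01), which did not pass (adjusted p = 0.298), and its p of 0.0446 is the nearest of the 7 to the limit of the table. Without CaKO replicate 3 its log2 fold change was -0.15.

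**Figure D2:**
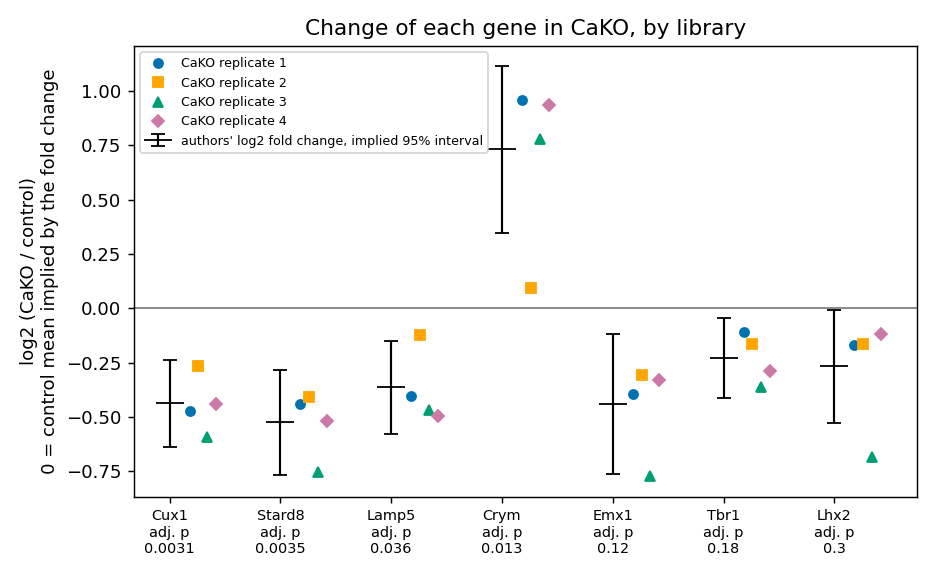
Log2 ratio of CaKO to control for the 7 genes, with the authors' fold change and its implied 95% interval in black and each CaKO library as a symbol, where 0 is the control mean implied by the fold change. Crym lies above 0 in all 4 CaKO libraries, with replicate 2 at 0.10, and the other 6 genes lie below 0 in all 4, most with replicate 3 lowest.

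CaKO replicate 3 was the lowest of the 4 libraries for 5 of the 6 genes with a negative fold change, the exception being Lamp5. It was also the lowest for 60.0% of the 1123 genes of the adjustment that the table lists as lower and for 69.0% of the 255 that fell. Replicate 2 was highest for 4 of these 6 genes, whereas it was highest for 16.9% of the genes that fell. The calls of Cux1 and Stard8 held with each library left out in turn. The direction of all 7 genes was bound to hold. For each gene all 4 CaKO libraries lie on the same side of the implied control mean, which was kept as it was. The ranges of the log2 fold changes were -0.50 to -0.39 for Cux1 and -0.56 to -0.45 for Stard8.

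**Figure D3:**
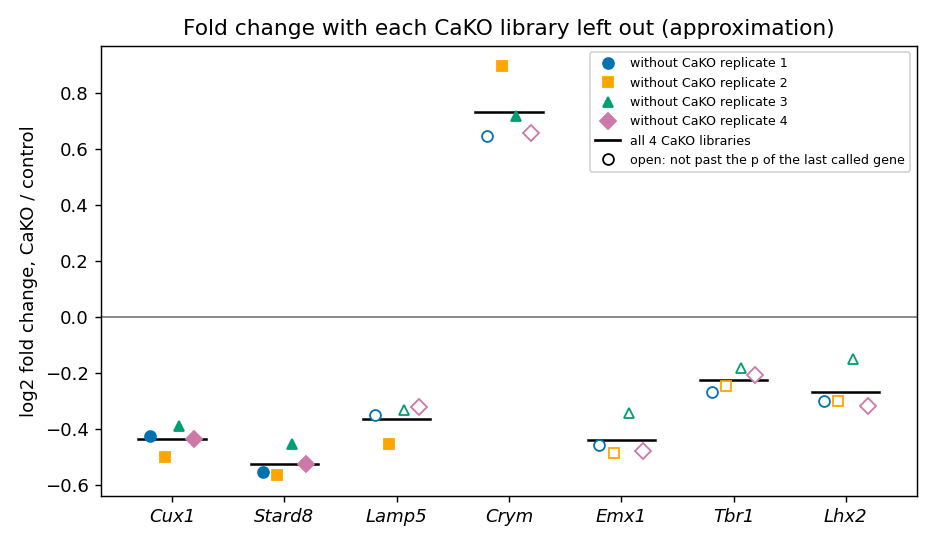
Log2 fold change (CaKO over control) of the 7 genes with each CaKO library left out by approximation (symbols), and with all 4 libraries (lines); open symbols do not pass the p of the last called gene. Cux1 and Stard8 stay filled in every case, Lamp5 only without replicate 2, and Crym only without replicate 2 or 3.

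The upper-layer markers with a value all pointed down. Of 16 upper-layer markers, 7 had a value, all 7 with a negative fold change (median -0.43 on the log2 scale), and 5 fell. Cux1, Stard8 and Lamp5 are among them and were chosen by these values. This list, like all lists here, was chosen with earlier results of these data known. Shares over all genes are therefore set beside it as description only. Of the other 13 markers, 4 had a value, all negative (median -0.43), and 2 fell, where 15.8% of all genes in the adjustment had a value and 1.97% fell. The median over the 2047 genes of the adjustment in the table was -0.22, and 54.9% of them had a negative fold change. Beyond Cux1, Stard8 and Lamp5, the 2 that fell were Plxnd1 and Penk. Plxnd1, a semaphorin receptor, had 1050.3, 949, 755 and 984 normalised counts in CaKO replicates 1 to 4, all below the implied control mean of 1399.5. The authors' deposited table put Plxnd1 at a log2 fold change of -0.58 (adjusted p = 0.000524), and the call held with each CaKO library left out. Penk, the proenkephalin gene, fell as well (log2 fold change -0.43, adjusted p = 0.0382, from the authors' deposited table), a call that ended without CaKO replicate 2, 3 or 4 (-0.37, -0.44 and -0.41). Without replicate 3 the fold change of Penk was larger in size than with all 4 CaKO libraries. There the wider error with 3 libraries alone ended the call. An antisense gene covers 14.3% of the exon sequence of Penk. The POU factor gene Pou3f3 and the adhesion gene Mdga1 had log2 fold changes of -0.29 and -0.43 in that table and did not pass (adjusted p = 0.0954 and 0.121). The remaining 9, among them Cux2, Rorb and Calb1, have no value here.

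Deep-layer markers went both ways. Of 25 listed, 10 had a value, 6 with a positive and 4 with a negative fold change (median 0.30 on the log2 scale), and 2 rose and 1 fell. Crym and Tbr1 are among them and were chosen by these values. Of the other 23, 8 had a value, 5 positive and 3 negative (median 0.30), and 1 rose and 1 fell, where 1.27% of all genes in the adjustment rose and 1.97% fell. Besides Crym, Oprk1, the kappa opioid receptor gene, rose: it had 163, 116, 134 and 98.0 normalised counts in CaKO replicates 1 to 4, against an implied control mean of 81.8. The authors' deposited table put Oprk1 at a log2 fold change of 0.64 (adjusted p = 0.0473), and its call ended without CaKO replicate 1, 2 or 3 (0.50, 0.69 and 0.62). Without replicate 2 the fold change was larger than with all 4 libraries, so there the wider error alone ended the call. Pcp4, a calmodulin-binding peptide, fell (log2 fold change -1.47, adjusted p = 0.00364, from the authors' deposited table). It had 397, 295, 146 and 191 normalised counts in CaKO replicates 1 to 4, against an implied control mean of 711. The Pcp4 call held with each CaKO library left out (-1.76, -1.54, -1.27 and -1.35 without replicates 1 to 4). Igsf5 shares 23.7% of the exon bases of Pcp4 on the same strand, so the value of Pcp4 is less certain. Of those that did not pass, the transcriptional corepressor gene Tle4, the sulfotransferase gene Hs3st4, the relaxin receptor gene Rxfp1 and the zinc finger gene Tshz2 had positive log2 fold changes from 0.25 to 0.54. Tbr1, Bcl6 and the complexin gene Cplx3 had negative ones, down to -0.43. These genes, like Pou3f3 and Mdga1, were named after their values were seen. The 15 with no value here include Bcl11b, Fezf2 and Foxp2.

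In the list of 19 cortical transcription factors, Emx1, Tbr1 and Lhx2 are the 3 with a value, and none of the other 16 had one. Neurod2, Neurod6 and Mef2c are among the 16. Other transcription factor genes with a value, such as Cux1, Pou3f3, Bcl6 and Bcl11a, stand in other lists. General markers of pyramidal neurons gave 7 values of 20, 6 with a negative fold change and 1 positive, with a median of -0.20. Of all genes in the adjustment, 15.8% had a value, 8.68% with a negative fold change, and 1.97% fell. The median over those with a value was -0.22. By the authors' deposited table, 2 fell, the spine protein gene Nrgn (log2 fold change -0.50, adjusted p = 0.0238) and the neuropeptide gene Cck (-0.47, adjusted p = 0.0191). The Nrgn call ended without CaKO replicate 3 (-0.37) and that of Cck without replicate 2 or 3 (-0.43 and -0.36). Camk2a, whose promoter drives the Cre, had a log2 fold change of -0.20 and did not pass (adjusted p = 0.316); it was named after its value was seen.

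Families and partners of the 7 genes were listed too. Calls of the 7 themselves within these lists follow from the choice of the 7 by these values, so nothing is read from them. Cux1 and Lamp5 were the only members with a value among 7 genes of the Cut class and among 5 genes of the LAMP family. Both were chosen by these values, and none of the other 6 Cut-class and 4 LAMP genes had a value. For comparison, 15.8% of all genes in the adjustment had a value, and 1.27% rose and 1.97% fell. In the list of 7 small-GTPase and regulator genes around Stard8, 3 had a value, all negative. Without Stard8 itself, 2 of 6 had a value and 1 fell. This was Rhoc, a small GTPase gene (at -0.71, adjusted p = 0.0307, by the authors' deposited table). That call ended without CaKO replicate 2 or 3 (-0.64 and -0.59). Around Lhx2, 4 of 21 LIM-homeodomain and cofactor genes had a value and none passed: Ssbp4 at -0.60 (adjusted p = 0.0539), the LIM-only gene Lmo1 at 0.61 (adjusted p = 0.0811), Ldb1, the partner that bridges LIM factors, at -0.28 (adjusted p = 0.263), and Lhx2 itself. Without Lhx2, 3 of 20 genes of that list had a value. Around Tbr1, 2 of 10 partners and targets had a value, Tbr1 and Bcl11a (-0.25, adjusted p = 0.165). Without Tbr1, 1 of 9 had a value. Reln, a target of Tbr1 in mouse cortex, has no value here.

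Crym binds thyroid hormone, and 4 of 15 genes of thyroid hormone handling had a value, 2 positive and 2 negative. Crym is among them and was chosen by these values. Of the other 14, 3 had a value, 1 positive and 2 negative, and 1 rose. Among all genes in the adjustment, 15.8% had a value and 1.27% rose. Thrb, a receptor of the hormone, rose: it had 1587, 1481, 1690.0 and 1482 normalised counts in CaKO replicates 1 to 4, all above the implied control mean of 1254. The authors' deposited table put Thrb at a log2 fold change of 0.31 (adjusted p = 0.0291), and the call ended without CaKO replicate 1 or 3 (0.31 and 0.27). Hr, a corepressor gene that the hormone induces, had a log2 fold change of -0.50 and missed the threshold (adjusted p = 0.0688). Dio2, which makes the active hormone, missed it too, with a log2 fold change of -0.28 (adjusted p = 0.199). Both were named after their values were seen.

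Markers of oligodendrocytes, their precursors and astrocytes had negative fold changes wherever they had a value, and some of them fell. Over all genes in the adjustment, 15.8% had a value, 8.68% with a negative fold change, and 1.97% fell. Of 20 markers of mature oligodendrocytes, 14 had a value, all negative (median -0.47), and 5 fell (Mobp, Mbp, Cnp, Mag and Fa2h). Of 12 precursor markers, 6 had a value, all negative (median -0.65), and 3 fell (Gpr17, Bcas1 and Olig1). Of 18 astrocyte markers, 6 had a value, all negative (median -0.32), and 2 fell (Atp1b2 and Aldoc). With 1 CaKO library left out, calls ended for Mag (without replicate 1 or 2), Fa2h (without 3), Olig1 (without 2 or 3), Atp1b2 (without 3) and Aldoc (without 1 or 3), and those of Mobp, Mbp, Cnp, Gpr17 and Bcas1 held each time. Summed over the genes with a value, the CaKO libraries ranged from 39889 to 48669 normalised counts for mature oligodendrocytes, from 2602 to 3604 for precursors and from 13125 to 16109 for astrocytes. Precursor and astrocyte sums were lowest in replicate 3, and the sum for mature oligodendrocytes was lowest in replicate 4 and highest in replicate 1. The part of these cells in the values of Cux1, Stard8, Lamp5, Emx1, Tbr1 and Lhx2 was not tested.

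Interneuron markers, relevant to Lamp5, gave 1 value of 20: Npy fell (log2 fold change -0.48, adjusted p = 0.0291, from the authors' deposited table), a call that ended without CaKO replicate 2 or 3 (-0.46 and -0.37). Gad1, Gad2, Pvalb, Sst and Vip have no value here. For the lists of this paragraph, the shares over all genes in the adjustment are 15.8% with a value and 1.97% that fell. Of 12 markers of the olfactory bulb and piriform cortex, regions that a dissection could include, 3 had a value and none passed. The 3 were Synpr (0.41, adjusted p = 0.073), Nos1 (0.38, adjusted p = 0.24) and Lhx2. Lhx2 was chosen by these values, and of the other 11 markers 2 had a value. Tbx21, a marker of olfactory bulb projection neurons, was listed with 1 read in a single CaKO library and outside the adjustment, and was named after its value was seen. Among 12 endothelial markers Ly6c1 fell (-0.39, adjusted p = 0.00481), with a near-identical copy, Ly6c2, that could share its reads, and among 14 microglial markers the 1 with a value, Trem2, did not pass (0.32, adjusted p = 0.302). All fold changes are those of the authors' deposited table.

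**Figure D4:**
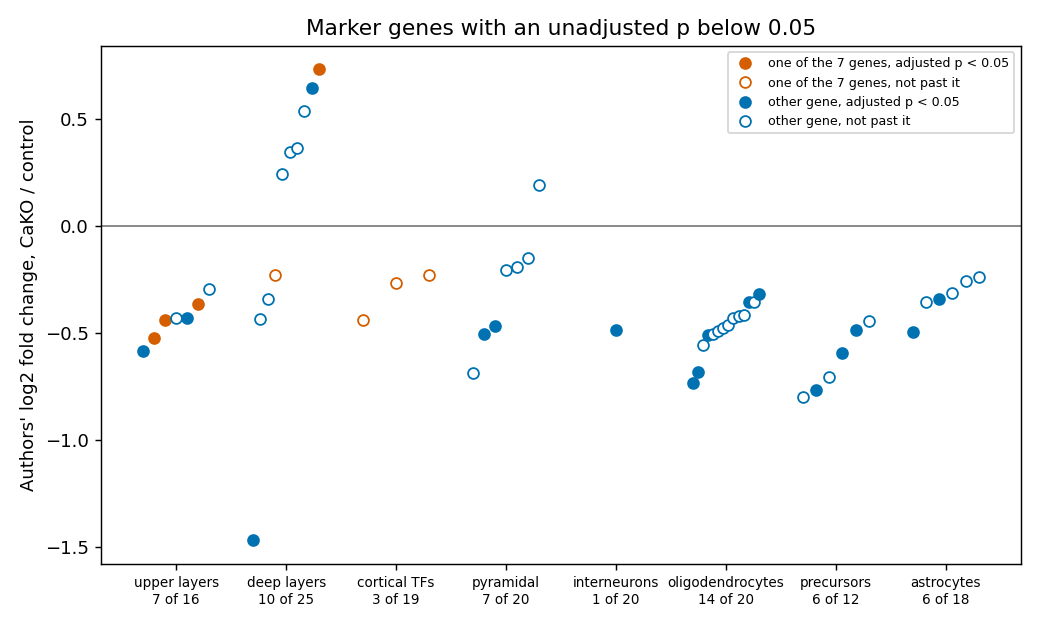
Log2 fold change (CaKO over control) in the authors' deposited table of every marker with an unadjusted p below 0.05, by list, with the number of genes with a value out of the number listed; filled symbols have an adjusted p below 0.05, and orange marks the 7 genes. Upper-layer markers with a value are all below 0, deep-layer markers spread from -1.47 to 0.73, and the oligodendrocyte, precursor and astrocyte markers are all below 0.

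The genes whose pattern over the 4 CaKO libraries was most like each of the 7 were sought among called genes of the same direction with a mean of at least 50 normalised counts (162 to 242 genes). Likeness was the root mean square difference of log2 deviations from each gene's own mean. The nearest gene was Sparcl1 for Cux1 (0.03), Hs6st3 for Stard8 (0.02), Elovl5 for Lamp5 (0.05), Ndufv3 for Emx1 (0.04), Ly6c1 for Tbr1 (0.02) and Pfdn1 for Lhx2 (0.02). Crym had few close genes: after the pseudogene Gm13341 (0.04), the next gene was Snapc2 at 0.20. Csnk2b was among the 3 nearest of both Emx1 and Lhx2, and Pdzrn3 of both Cux1 and Lamp5. With 4 libraries, such likeness is a description and no more.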

How the data were processed

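Poly-A RNA from the mPFC of 4 CaKO and 4 control mice was sequenced as paired-end reads. Per the labels and the submitters' processing notes, the authors aligned reads to GRCm38 with TopHat2 2.0.12 and counted them per gene with HTSeq 0.6.1; the notes also name DESeq2 1.30.1. The deposited values per library are a signal, that is counts which the authors divided by a library factor: 100% of the values above 0 in each library are whole multiples of 1 step (tolerance 0.01), whatever the gene length. The deposited log2 fold changes run CaKO over control, as shown by the 18 genes without a read in any CaKO library, whose fold changes are all negative. The deposited p-values end at 0.0499, and those below 1 after adjustment follow Benjamini-Hochberg over 12938 genes to within a relative difference of 0.005. A further 325 genes, listed with an adjusted p of 1, were treated as outside the adjustment.

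The library columns hold CaKO mice only, so the planned fallback applied: the authors' adjusted p (threshold 0.05) gave the calls, and no count test was run. Implied standard errors are the fold change over the normal quantile of its p. Of the 2372 genes, 2266 matched GENCODE M21 by exact position, 89 by at least 80% mutual overlap and 17 not at all. Copies were sought with BLAST 2.17.0 (at least 98% identity over 200 bases and 50% of the shorter transcript). Leaving out a CaKO library held the implied control mean, widened the standard error for 3 libraries and kept a call at a p of at most 0.00162. The wider error can by itself end a call close to the threshold, so an ended call need not rest on the library left out. Sequences were RefSeq's. A pseudocount of 0.5 was used for likeness only. Python 3.11.15, pandas 2.3.3, NumPy 2.4.6 and SciPy 1.17.1 were used.

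The 7 genes and all lists were chosen with earlier results of these data known. Named genes are the 7, each list's called genes or else up to 3 with the smallest p, and the nearest genes by likeness. A further list of neighbouring-region markers and some single genes are not reported here. Alternatives were other thresholds, a larger family of tests, left-out libraries, exact matches only, and other scalings or means.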

Additional observations from a re-analysis of the deposited data

Results flagged for a closer look

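Among 56 genes named in the text with a value inside the adjustment, 6 had a CaKO library far from the other 3. Chance gives about 1 in 20 for genes chosen without regard to their pattern over the libraries. Some of the 6 were chosen by that pattern, so nothing is read from the count. Lhx2 had 666 normalised counts in CaKO replicate 3, against a median of 952 over the 4 libraries, and the gap to the nearest library was 0.896 of the whole range. Ndufv3, Pfdn1 and Csnk2b, which were named for a pattern like that of Emx1 or Lhx2, were also lowest in replicate 3. Emx1 and Lhx2 are themselves lowest there, so this comes with the way these genes were chosen. Ndufv3 had 227 normalised counts there, against a median of 290.0 (a gap of 0.841 of the range), Pfdn1 had 175 against a median of 257 (0.863), and Csnk2b had 543 against a median of 757 (0.935). Cnp, a myelin enzyme gene, had 2560 normalised counts in CaKO replicate 1, against a median of 2278, with a gap of 0.929 of the range. The complexin gene Cplx3 had 117 normalised counts in CaKO replicate 4, against a median of 94.8, with a gap of 0.853. All 6 exceed the critical value of 0.829 for 4 samples. Their cause was not tested.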

How the results depend on the processing

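No paired analysis was possible because the library columns hold CaKO mice only, and the count test was not run for the same reason. Of 388 recomputed values, 0 reversed direction, 5 lost a call, 39 counts moved by more than 1.5 times and 344 stayed. Most of the 388 are counts or CaKO levels, which have no direction to reverse. Counts that changed by at most 1.5 times are included in the 344. With a library left out or a geometric mean, the direction of the 7 genes could not reverse. For each gene all CaKO libraries lie on the same side of the implied control mean, which was held. With a library left out, counts of calls could only stay or fall, so lists without a call stayed so. Log2 fold changes lost their call for Lamp5 (range -0.45 to -0.32 with 1 CaKO library left out) and Crym (0.65 to 0.89), and not for Cux1 or Stard8. Lamp5 lost it without replicate 1, 3 or 4 and Crym without replicate 1 or 4. With 1 CaKO library left out, 0 to 1 of the 7 genes rose and 2 to 3 fell. Likewise 3 to 4 upper-layer markers, 0 to 2 pyramidal, 0 to 1 LAMP, 1 to 2 small-GTPase, 0 to 1 interneuron and 0 to 2 astrocyte genes fell, and 0 to 1 deep-layer and 0 to 2 thyroid genes rose. At an adjusted p below 0.01, 0 of the 7 genes, 0 deep-layer and 0 thyroid genes rose, and 3 upper-layer, 0 pyramidal, 0 LAMP, 1 small-GTPase, 0 interneuron, 2 oligodendrocyte and 1 astrocyte genes fell. At an adjusted p below 0.1, 10 oligodendrocyte, 4 astrocyte, 1 LIM and 1 thyroid gene fell, and 1 LIM and 1 olfactory gene rose. A larger family of 13263 tests, a geometric mean, and rescaling by median ratio ended no call of the 7 genes. Keeping exact position matches only could not end one, since all 7 genes matched exactly. Scaling to equal total reads was run on the CaKO levels only, and each of the 7 moved by less than its SD. Emx1 has the fewest reads of the 7, and what depth limits was not tested.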
